A study of Mus musculus with 2 samples.

Results

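Gene desert boundaries are positions where the contacts of a chromosome change partners although no protein-coding gene starts or ends nearby. In immediate neuronal precursors of the mouse olfactory epithelium, 1092 of the 7841 boundaries in the authors' list were of this kind. Each had its midpoint outside every protein-coding gene and more than 200 kb from the nearest protein-coding transcription start site (TSS). None had the start of a lincRNA or antisense gene, or the end of a protein-coding gene, in its 5 kb interval extended by 10 kb on each side. Genes were taken from GENCODE M21 on GRCm38, and the choice used no score.

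The cells were untreated primary cells of FVB/NTac pups of mixed sex, sorted by fluorescence through a gate named P4. The sorting protocol names Ngn1-GFP mice and immature olfactory sensory neurons, while the sample labels give no genetic modification and immediate precursors. How many pups were pooled is not given in the sources used here. There was 1 group and no control, with biological replicates of 2200000 cells for the first and 2100000 for the other, crosslinked with 1% formaldehyde. In situ Hi-C with DpnII, which cuts chromatin in fixed nuclei and joins ends that lie close together, gave the contacts. Boundaries were called once, on the contacts of both replicates combined, so each has a single score without an error between replicates, and the read depth behind the calls is unknown. No expression was measured, and the cell label could not be checked against marker genes. Differences between groups of boundaries are therefore described with Wilson 95% intervals and without a test. The intervals take boundaries to be independent of each other and include no error but that of counting.

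A domain boundary separates stretches of chromosome that mostly contact themselves. Many arise where the cohesin ring, extruding a loop of DNA, stops at the zinc finger protein CTCF bound to its motif, and others lie at active gene starts. Gene deserts are long stretches without protein-coding genes. Some flank genes that control development and hold enhancers acting over long distances, and others border large neuronal adhesion genes and are poor in known regulatory sequence.

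Shown first are some of the strongest desert boundaries that held a match to the CTCF motif, since they let the sequence, the flanking genes and the score be read together. Each line gives the 2 flanking protein-coding genes, the GRCm38 position of the 32 bases and the strand on which they read 5′ to 3′. Capitals mark the match to the CTCF core consensus of 12 letters, searched on both strands in the interval extended by 10 kb, and the match nearest to the centre is given. The letters are those of RefSeq's GRCm38.p6. The lines follow the score, from 2.996 for the first to 1.39 for the last.
Adam6a and Zfp386, chr12:115837888-115837919, minus strand: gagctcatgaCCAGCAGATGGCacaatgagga
Tshz3 and Zfp536, chr7:37360335-37360366, minus strand: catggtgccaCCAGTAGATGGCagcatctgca
Npvf and Nfe2l3, chr6:51168226-51168257, minus strand: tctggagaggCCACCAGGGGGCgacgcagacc
Sox9 and Slc39a11, chr11:113172591-113172622, plus strand: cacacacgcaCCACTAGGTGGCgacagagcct
Olfm4 and Pcdh17, chr14:80233190-80233221, plus strand: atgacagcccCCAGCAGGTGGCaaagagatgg
Cntn3 and Chl1, chr6:103296196-103296227, plus strand: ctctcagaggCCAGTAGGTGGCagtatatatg
Gadd45g and Diras2, chr13:52255868-52255899, plus strand: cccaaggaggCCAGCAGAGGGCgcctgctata
Etv1 and Arl4a, chr12:39496407-39496438, minus strand: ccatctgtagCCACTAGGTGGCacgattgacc
Tcf21 and Eya4, chr10:23087022-23087053, plus strand: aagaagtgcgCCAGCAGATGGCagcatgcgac

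In the boundaries between Tshz3 and Zfp536 and between Tcf21 and Eya4 the match lay inside the 5 kb interval. In the others it lay to one side, the farthest of them beside Npvf at -9.26 kb, that is left of the interval's centre. A match is a run of letters in the C57BL/6J reference, and binding of CTCF was not measured.

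Most desert boundaries were weak. The authors' classes divide at a score of 0.5, with weak boundaries from 0.2 up to it, and 173 desert boundaries were strong and 919 weak. The strong share was 15.8% (Wilson 95% interval 13.8 to 18.1%), while over all 7841 boundaries 52.8% were strong. The nearest comparison is with the 1601 other intergenic boundaries, which met the same conditions on gene bodies, lincRNA and antisense starts and gene ends, had no protein-coding TSS within 10 kb of the interval, but lay within 200 kb of a TSS. Of those 55.2% were strong (52.8 to 57.6%). The median desert score was 0.296 (quartiles 0.240 and 0.399), against 0.554 (0.313 and 0.947) for the intergenic boundaries nearer to genes.

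**Figure D1:**
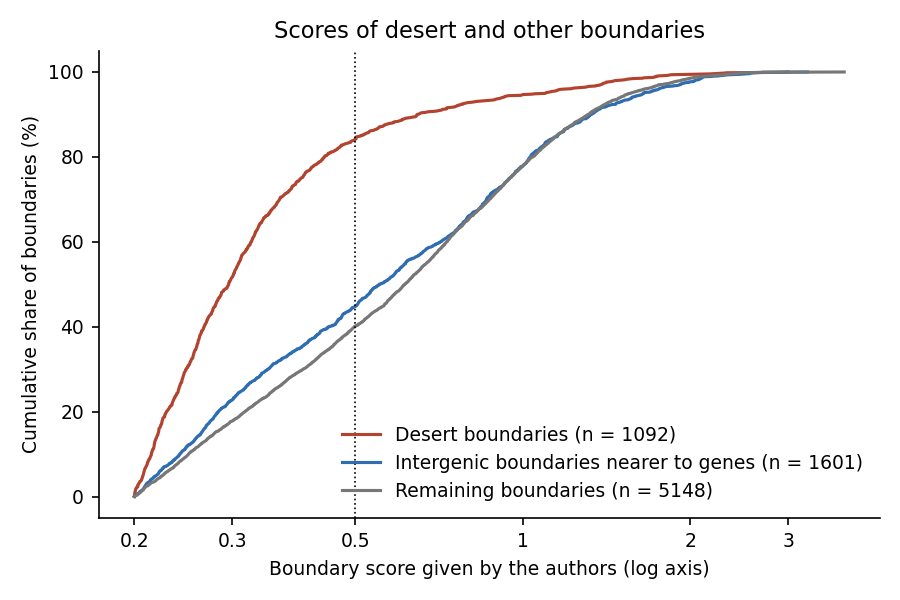
Cumulative share of boundaries (%) against the boundary score on a log axis, for 1092 desert boundaries, 1601 intergenic boundaries nearer to genes and all remaining boundaries. The dotted line marks the score of 0.5 at which the strong class begins, which 15.8% of desert and 55.2% of nearer boundaries reached.

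The plot of scores shows the desert curve far to the left of the others up to a score near 1 and close to them only at its upper end. Of the desert boundaries 940 (86.1%) scored below the median of the whole list, and 563 scored under 0.3. A small upper tail remained. Scores of at least 1 were reached by 59 desert boundaries, and 19 were among the 392 highest scores of the list. Deserts held 13.9% of all boundaries but 4.18% of the strong and 24.8% of the weak ones.

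On 20 of 20 chromosomes the strong share and the median score were lower for desert boundaries than for intergenic boundaries nearer to genes. The desert share ran from 3.85% on chromosome 17 (1 of 26) to 13 of 59 on chromosome 14, below the lowest nearer share, 36.8% on chromosome X. It was also seen at like base composition. Where the interval held under 36% GC, 8.17% of 257 desert and 32.6% of 95 nearer boundaries were strong. Between 42 and 45% GC the shares were 26.9% of 108 and 62.6% of 369, and from 45% GC upwards 17.2% of 58 and 68.9% of 341. The intervals of the 2 shares did not overlap in any of the 6 GC classes.

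Strong boundaries thinned out with distance from the genes, while weak ones did not. Among intergenic boundaries 10 to 50 kb from a TSS, 58.4% of 777 were strong, and 60.5% of 458 were strong at 50 to 100 kb. The share was 41.8% of 366 at 100 to 200 kb. Inside the deserts it was 24.3% (63 of 259) at 200 to 300 kb, 18.8% (57 of 303) at 300 to 500 kb, 10.1% (36 of 358) at 500 to 1000 kb and 9.88% (17 of 172) beyond 1000 kb. Per Mb of sequence in the same distance class, strong boundaries went from 1.997 at 10 to 50 kb to 0.210 beyond 1000 kb. Weak boundaries per Mb were lowest at 100 to 200 kb, at 1.04, and highest beyond 1000 kb, at 1.92. The list ends at a score of 0.2, and many desert scores lie just above it. Weak and total densities, here and below, therefore depend on that limit.

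**Figure D2:**
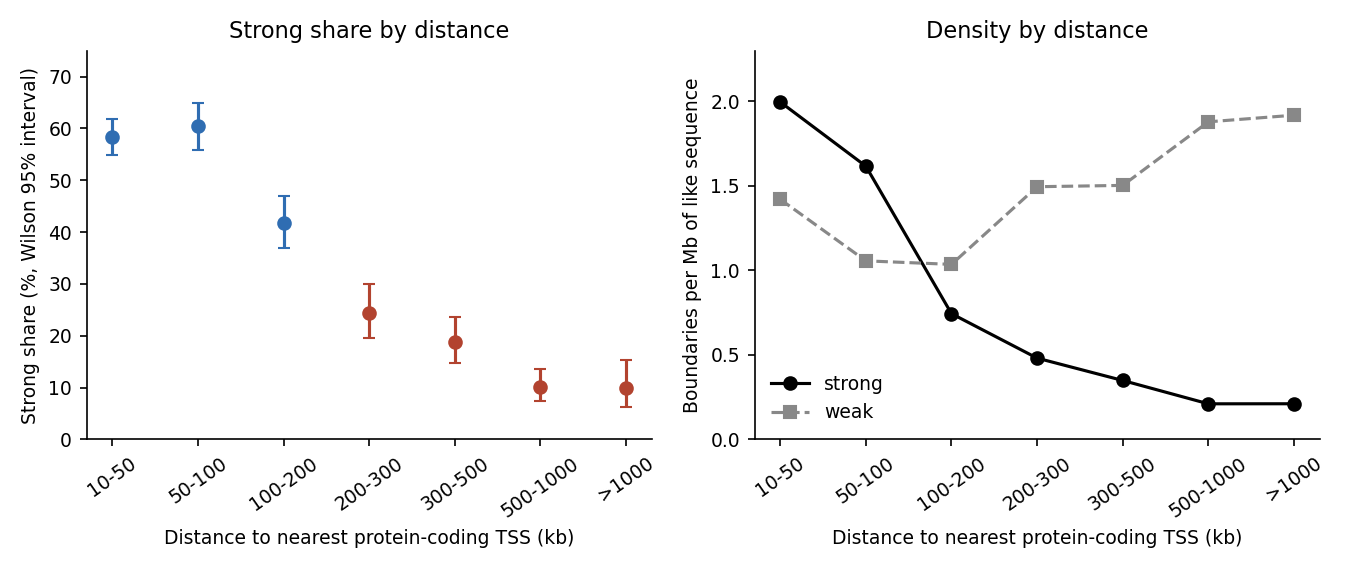
Left, the strong share (%) of intergenic boundaries by distance to the nearest protein-coding TSS (kb), with Wilson 95% intervals, blue up to 200 kb and red for desert boundaries. Right, strong and weak boundaries per Mb of sequence in each distance class: strong ones go from 1.997 to 0.210 per Mb, and weak ones from 1.42 to 1.92, with a low of 1.04.

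In all, the deserts covered 547 Mb, counted as 5 kb bins that met the same conditions, which was 21.4% of the assembled sequence. They held 1.997 boundaries per Mb, against 2.65 in intergenic sequence nearer to genes and 3.35 in all other sequence. The strong density was 0.316 per Mb against 1.46 in the nearer intergenic sequence, and the weak density 1.68 against 1.19. Density was lower in deserts on 19 of 20 chromosomes. The exception was chromosome X, whose 93 desert boundaries stood at 2.55 per Mb against 2.09 nearer to genes. Of those 93, 12 were strong (12.9%, 7.54 to 21.2%), against 16.1% of the 999 on autosomes, and 36.8% of the 133 nearer boundaries on chromosome X were strong.

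Just inside the limit of 200 kb, the 10 nearest members (200.1 to 201.5 kb) had scores from 0.243 to 1.55 with a median of 0.362, and 2 were strong. Just outside it, the 10 nearest intergenic boundaries (196.7 to 199.2 kb) had scores from 0.209 to 2.04 with a median of 0.287, and 3 were strong. The score ranges on both sides of the limit overlapped.

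Domains between desert boundaries were long. Desert boundaries next to each other in the list enclosed 582 domains with a median length of 338 kb (quartiles 210 and 515 kb), of which 17 exceeded 1 Mb. Both ends were not required to lie in the same gap between genes, so some of these domains hold protein-coding genes. Counting both neighbours, desert boundaries lay a median of 370 kb from the next boundary, nearer intergenic ones 285 kb and all other boundaries 255 kb. Of the 582 domains, 439 had a weak boundary at both ends and 7 a strong one at both. With 15.8% of desert boundaries strong, mostly weak pairs are a matter of course, and pairing beyond this share was not tested. For 334 desert boundaries both neighbours were desert boundaries too, and for 262 neither was.

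CTCF motif matches were fewer at desert boundaries than at intergenic boundaries nearer to genes, and more frequent than in the deserts at large. Within 10 kb of the interval, 103 desert boundaries held a match (9.43%, 7.84 to 11.3%), where 26% of all boundaries and 25.6% of the nearer intergenic ones (23.5 to 27.8%) did. Of all desert bins of the same length 4.39% held one, and of nearer intergenic bins 10.2%. The share of desert boundaries was thus above that of desert sequence, and the nearer boundaries stood above their own sequence in the same way. The consensus is strict, so many true sites go uncounted in each class.

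Desert boundaries with a match were more often strong. Of the 103 with a match 42 were strong (40.8%, 31.8 to 50.4%), with a median score of 0.425. Of the 989 without one 131 were strong (13.2%, 11.3 to 15.5%), with a median of 0.287. Among nearer intergenic boundaries the strong shares were 75.1% of 410 with a match and 48.4% of 1191 without. At either state of the motif the desert share was thus the lower. The boundaries with a match had a median GC content of 40.3%, against 38.1% without, and the part of base composition in this difference was not tested.

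**Figure D3:**
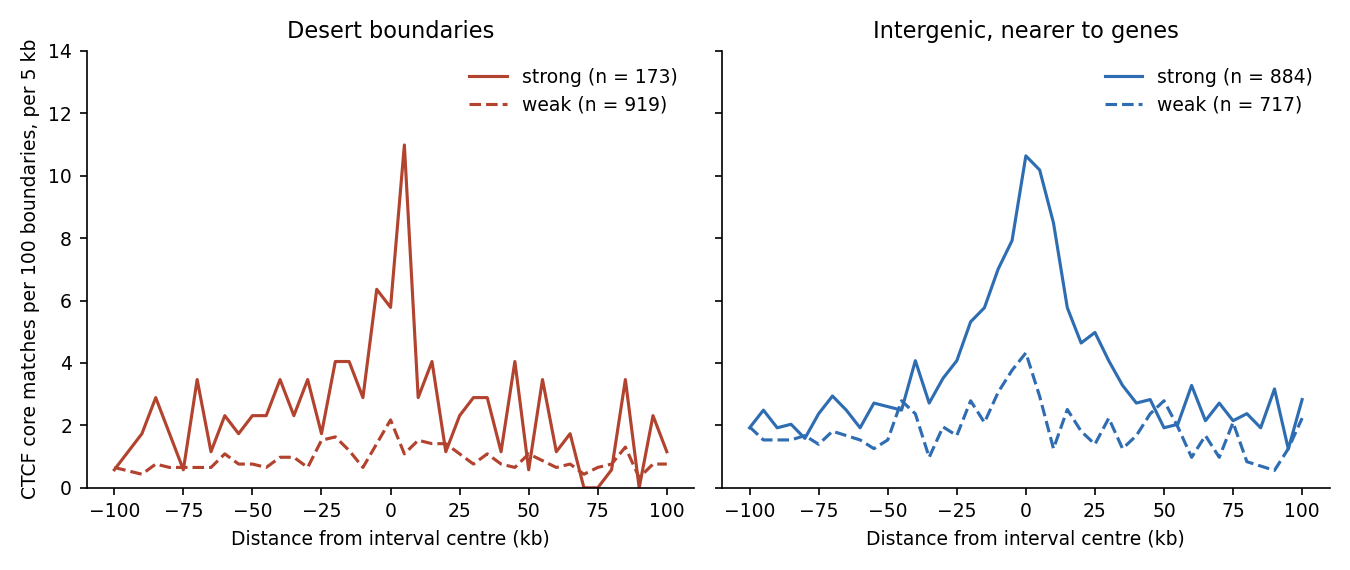
CTCF core matches per 100 boundaries in windows of 5 kb, against distance from the interval centre (kb), for strong (solid) and weak (dashed) boundaries in deserts (left, 173 and 919) and in intergenic sequence nearer to genes (right, 884 and 717). Nearer boundaries peak at the centre and strong desert ones in the window at 5 kb, with 19 matches; the central window of strong desert boundaries has 5.78 per 100, against a mean of 1.55 from 50 kb outwards.

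The central windows of 5 kb of the 1092 desert boundaries held 30 matches, or 2.75 per 100 boundaries, against a mean of 0.857 per 100 at 50 to 100 kb from the centre. In the nearer intergenic class the values were 7.81 and 1.96. Within the extended intervals desert boundaries had 113 matches. Of these, 72 pointed away from the centre in the sense that minus-strand matches lay on its left or plus-strand matches on its right (63.7%). Nearer intergenic boundaries had 349 of 501 in this arrangement (69.7%).

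Strong and weak desert boundaries also differed in surroundings. Strong ones lay a median of 370 kb from the nearest TSS and weak ones 514 kb. Median GC content was 39.1% and 38.1%, and 24.3% against 6.64% held a CTCF match. Desert sequence as a whole was poor in GC, with a median of 38.4% over bins, against 41.3% in nearer intergenic bins, and desert boundaries had the same median as desert bins, 38.4%. Of the desert boundaries 31 (2.84%) lay in intervals of mostly repeated sequence. The share was 3.50% for nearer intergenic boundaries and 1.7% for all boundaries. Among bins it was 8.39% in deserts and 11.9% in nearer intergenic sequence.

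The highest scores in the deserts were reached at loci of several kinds. The first (chr12:115830001-115835000, score 2.996) lay between Adam6a, a gene of sperm fertility, and Zfp386, a zinc finger gene. The gap holds the variable segments of the immunoglobulin heavy chain, which GENCODE does not class as protein_coding. Mostly repeated sequence filled 34.1% of the bins up to 100 kb away, and the part of repeats in its score was not tested. Of the 6 desert boundaries in this gap 5 were strong. In all, 16 desert boundaries lay in gaps with immunoglobulin or T cell receptor segments, with a median score of 0.508, and 8 were strong. Without them the strong share was 15.3%.

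Gene starts of other classes stood within 10 kb of 140 desert boundaries, and 952 had none of any class. Processed pseudogenes, which are reverse-transcribed copies of mRNAs, were near 81 of the 140, immunoglobulin variable genes near 14 and microRNA genes near 8. For the 952 the strong share was 15.1%. Desert sequence without such starts held 2.01 boundaries per Mb, against 1.997 in all desert sequence. Of the 1601 nearer intergenic boundaries 1208 had no gene start of any class. Shares of desert bins near each class of gene are not given here.

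The second highest score belonged to a pair of transcription factor genes. A boundary at chr7:37360001-37365000 (score 2.90, rank 6 in the whole list) lay 589 kb from Tshz3, a teashirt zinc finger factor, and 110 kb from Zfp536, a zinc finger repressor of neuronal differentiation. It was GC-rich for a desert at 46.9%, and 0% of the surrounding bins were mostly repeated. The next (chr2:8665001-8670000, 2.33) stood almost in the middle of a gap of 2.35 Mb, 1.16 Mb from Celf2, an RNA-binding splicing regulator, and 1.19 Mb from Gata3, a zinc finger factor of sensory and immune development. The other 3 desert boundaries of that gap were weak, and their median with it was 0.273.

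Genes of receptor families flanked the next pair, on both sides of the first and on 1 side of the other. One (chr6:130985001-130990000, 2.29) lay between Klra1 and Klra2, lectin-like receptors of natural killer cells, with 34.1% of the surrounding bins mostly repeated. The other (chrX:50630001-50635000, 2.23) lay 204 kb from Olfr1324, an olfactory receptor gene, and 209 kb from the kinase gene Stk26. Around the latter boundary 2.44% of the bins were mostly repeated. This boundary was 1 of 3 desert boundaries flanked by a chemosensory receptor gene (0.275%, 0.0935 to 0.805%), against 0.456% of desert bins. Neither boundary of the pair held a CTCF match.

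The rest of the 10 highest had flanking genes of mixed kinds. A boundary at 2.17 (chr6:51175001-51180000) lay 523 kb from the neuropeptide gene Npvf and 255 kb from Nfe2l3, a leucine zipper factor. One at 1.99 (chr2:56075001-56080000) lay 479 kb from Kcnj3, which encodes an inwardly rectifying potassium channel subunit, and 1.03 Mb from Nr4a2, a nuclear receptor of dopaminergic neurons. One at 1.85 (chr3:20610001-20615000) was 245 kb from Agtr1b, an angiotensin receptor gene, and 1.46 Mb from Tbl1xr1, a corepressor subunit. Of these 3 only that beside Npvf held a motif match. One at 1.83 (chr14:109840001-109845000) split the gap between Slitrk1 and Slitrk6, 2 paralogous synaptic adhesion genes, 928 kb from one and 906 kb from the other. Its interval had 34.5% GC and no motif match. The last of the 10 (chr11:8405001-8410000, 1.81) was 1.19 Mb from Igfbp3, a binding protein of insulin-like growth factors, and 24.2 kb from the body of Tns3, a focal adhesion gene whose start was 257 kb away. Among the 10 highest, 4 held a motif match.

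Developmental regulators flanked 139 desert boundaries (12.7%, 10.9 to 14.8%). The list holds 536 genes, chosen by symbol to cover transcription factor families, and it is not complete. It leaves out transcription factor genes such as Hnf4g, Mitf and Meox2, each beside a strong desert boundary that is counted among the 953 elsewhere. It also counts the boundary between Auts2 and Castor2. A developmental regulator is here a gene of this list. Among desert bins the share was 13.0%, and among nearer intergenic boundaries 11.1% (9.67 to 12.8%). The share of desert bins thus lay inside the interval of the desert boundaries. Of 156 gaps beside such a gene 84 held a desert boundary (53.8%), and of 840 other gaps 434 did (51.7%). Boundary density was 1.95 per Mb beside these genes and 2.00 elsewhere in the deserts. The strong share was 21.6% (30 of 139, 15.6 to 29.1%) against 143 of 953 elsewhere in the deserts (12.9 to 17.4%), with overlapping intervals. A CTCF match was held by 15.1% (21 of 139) and 8.60% (82 of 953). Median GC content was 39.6% and 38.2%. Within classes of GC the strong shares were 17.3% of 52 and 10.8% of 462 under 38% GC, 20.9% of 43 and 17.9% of 369 from 38 to 42%, and 27.3% of 44 and 22.1% of 122 above, with overlapping intervals in each class. The CTCF shares in the same classes were 5.77% and 5.84%, 11.6% and 7.86%, and 29.5% and 21.3%.

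**Figure D4:**
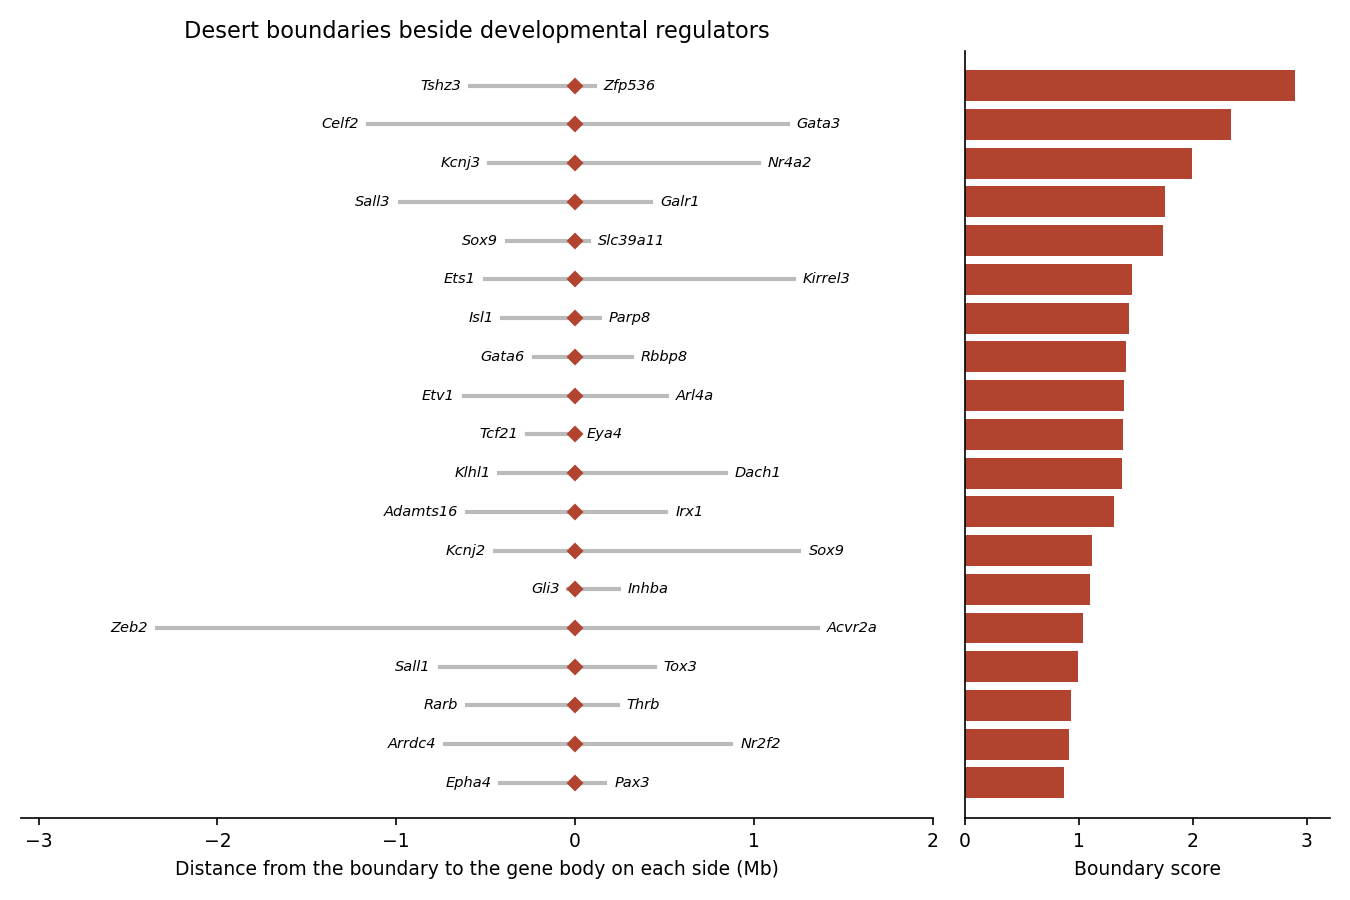
High-scoring desert boundaries with a developmental regulator of the list on either side, 19 in all. Left, distance (Mb) from the boundary (diamond) to the body of the protein-coding gene on each side; right, the boundary score, from 2.90 beside Tshz3 to 0.867 between Epha4 and Pax3.

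The plot of these 19 boundaries shows regulators standing alone at one edge of a gap and, in a few cases, at both. After Tshz3, Gata3 and Nr4a2, the next score was 1.76 (chr18:81965001-81970000), 981 kb from Sall3, a spalt zinc finger gene, and 425 kb from Galr1, a galanin receptor gene. It held 2 motif matches, whose sequence is not shown. Sox9, a factor of cartilage, gonad and stem cells, had a desert boundary on each side. On one side (chr11:113165001-113170000, 1.74) the boundary lay 380 kb from Sox9 and 77.4 kb from the zinc transporter gene Slc39a11, and its interval was the richest in GC of the 19 at 52.6%. On the other side (chr11:111525001-111530000, 1.11) a boundary lay 1.25 Mb from Sox9 and 451 kb from the channel gene Kcnj2. It held 2 motif matches, and in humans this desert is known for rearrangements that alter limbs and gonads.

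Regulators of neurons and of mesoderm followed. Boundaries scored 1.47 between Ets1, an ETS factor, and Kirrel3, an adhesion gene that guides olfactory and vomeronasal axons in mice. Between Isl1, a LIM homeodomain factor of motor neurons and heart, and Parp8 the score was 1.44. It was 1.41 between Gata6, a factor of heart and gut, and the DNA repair gene Rbbp8. None of these 3 held a motif match. The gap between Etv1, an ETS factor, and Arl4a had a boundary of 1.40 with 1 match, and that between Tcf21, a helix-loop-helix factor of mesoderm, and Eya4, a coactivator gene of ear and heart, 1.39 with 2 matches. The gap of Klhl1 and Dach1, a retinal determination gene, had 1.37, and that of Adamts16 and Irx1, an Iroquois homeobox gene, 1.30, both without a match.

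Regulators stood on both sides in a minority of cases, 8 of the 139. One lay between Sall1, a spalt factor of kidney and limb, and Tox3, an HMG box gene (chr8:89800001-89805000, 0.993), with no match. Rarb, a retinoic acid receptor gene of the list, was followed by Thrb, a thyroid hormone receptor gene (chr14:17420001-17425000, 0.928).

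Some of the deserts separate a regulator from a signalling gene. The boundary at chr13:15765001-15770000 (score 1.10) lay 37.5 kb from the body of Gli3, the repressor and activator of hedgehog signalling, and 244 kb from Inhba, an activin subunit gene. That at chr2:47455001-47460000 (1.04) lay in the gap of 3.70 Mb between Zeb2, a zinc finger factor of neural crest, and the activin receptor gene Acvr2a, 2.34 Mb from the former. This gap held 7 desert boundaries, 3 of them strong and 0 with a motif match. A boundary of 0.916 lay 874 kb from the body of Nr2f2, an orphan nuclear receptor gene, in the gap after Arrdc4. The boundary between Epha4, an ephrin receptor gene, and Pax3, a paired box factor of neural crest and muscle, scored 0.867 (chr1:77930001-77935000) and held 1 match. In mouse limbs, deletions that remove the boundary between these genes are known to let Epha4 enhancers act on Pax3.

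Genes of adhesion and synapse organisation were the list most often beside desert boundaries, at 249 (22.8%, 20.4 to 25.4%). Among nearer intergenic boundaries the share was 4.93%. Of the desert bins 22.4% had such a flank, which lay inside the interval of the desert boundaries. Of these 249, 31 were strong (12.4%, 8.91 to 17.1%), and their median GC content was 36.8%. Axon guidance genes flanked 51 desert boundaries (4.67%, 9 strong), against 5.46% of desert bins. Ion channel and transmitter receptor genes flanked 77 (7.05%, 9 strong), against 6.70% of bins. Signalling ligands and modulators flanked 36 (3.30%, 9 strong), against 3.18% of bins. For these 3 lists too the share of desert bins lay inside the interval of the desert boundaries. Of the 553 flanked by no gene of a list, 16.5% were strong.

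The number of desert boundaries grew with the length of the gap, and their density per Mb of desert varied little. Gaps with desert sequence numbered 996, of which 518 held a desert boundary and 153 a strong one. In gaps up to 0.5 Mb the density was 2.19 per Mb of desert, in those of 0.5 to 1 Mb 1.94 per Mb of desert, in those of 1 to 2 Mb 1.97, in those of 2 to 3 Mb 2.01 and in the 27 longer ones 2.09. All 27 held at least 1 desert boundary, with a median of 7.

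**Figure D5:**
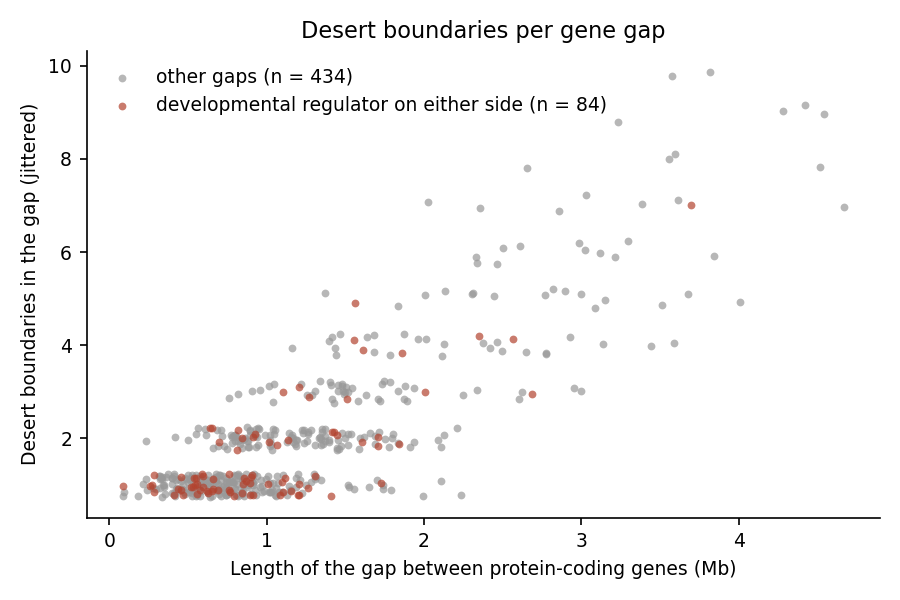
Number of desert boundaries (jittered vertically) against the length of the gap between protein-coding genes (Mb), for the 518 gaps that held at least 1. Red points are the 84 gaps beside a developmental regulator and grey points the other 434; the most crowded gaps hold 10.

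Of the 6 gaps with 9 or 10 desert boundaries, 5 bordered adhesion genes. All 6 were among the 27 gaps longer than 3 Mb, and 22.4% of all desert bins had such a flank. How many of the other long gaps bordered adhesion genes was not counted, so no link to these genes is drawn. The gap from D3Ertd751e to Pcdh10, a protocadherin gene, held 10 desert boundaries in 3.58 Mb, with scores from 0.224 to 0.759, and 1 was strong. That from Dsel to Cntnap5a, a contactin-associated gene, held 10 in 3.82 Mb, from 0.206 to 0.755, again with 1 strong. Boundaries in these 2 gaps were many and nearly all weak. The gap from Olfm4 to Pcdh17 held 9 in 4.42 Mb (2 strong, median 0.357), and that from Cntnap5b to Cdh20, a cadherin gene, 9 in 4.28 Mb (0.206 to 1.45, 1 strong). The highest scores of the latter 2 gaps were those of boundaries 214 kb from the body of Olfm4 and 701 kb from that of Cdh20. The gap from Pcdh20 to Pcdh9, tied with them and outside the rule for named gaps, held 9 in 4.54 Mb (0.227 to 1.39, 2 strong).

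The 5 boundaries farthest from any protein-coding start also lay beside adhesion genes. Such distances occur only in the longest gaps, some of the 5 shared a gap, and like gaps without these genes were not counted. The farthest (chr14:91305001-91310000) was 2.58 Mb from the nearest TSS, between the protocadherin genes Pcdh20 and Pcdh9, with a score of 0.309 and 1 motif match. Another in that gap was 2.19 Mb away and scored 0.252. In the gap from Cntnap5b to Cdh20 boundaries 2.46 and 2.33 Mb from a TSS scored 0.313 and 0.310. Of these 5 only the boundary between Tenm3, a teneurin adhesion gene, and Aga, a lysosomal enzyme gene, was strong (chr8:51120001-51125000, 2.28 Mb, 0.838), in an interval of 31.3% GC.

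On chromosome X the highest desert scores after that beside Olfr1324 were 1.10, between the synaptic scaffold gene Cnksr2 and the kinase gene Rps6ka3, and 0.852, between Cldn34d, a claudin gene, and Tbl1x, a corepressor gene. Of the 93 desert boundaries there 3 held a CTCF match (3.23%, 1.10 to 9.06%), against 10.0% of the 999 on autosomes. Nearer intergenic boundaries also had a lower share on chromosome X, 15.8% of 133 against 26.5% of 1468 on autosomes. Desert shares on chromosomes 3 and 17 were 3.92% and 3.85%.

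VISTA enhancer elements that RefSeq lists on the mouse genome were about as rare near desert boundaries as in desert sequence at large. This rests on 4 boundaries. VISTA elements not listed there and other enhancer catalogues were not used. RefSeq lists 620 VISTA elements on these chromosomes, tested for enhancer activity in mouse embryos. Such an element lay within 10 kb of 4 of the 1092 desert boundaries (0.366%), against 0.676% of all boundaries and 0.309% of desert bins. One of the 4 was strong (score 0.707), between Npvf and Nfe2l3, near an element active in the branchial arch. The others scored 0.216 between Jun and Fggy and 0.451 between Sall1 and Tox3, both near heart elements, and 0.435 between Bbs9 and Bmper, near an element active in forebrain, midbrain, limb and eye. In gaps that held a VISTA element anywhere, 22 of 106 desert boundaries were strong, beside 173 of all 1092. Those gaps held 9.71% of the desert boundaries and 9.76% of the desert bins.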

How the data were processed

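Per the series' design text, both replicates' contacts were merged into 1 matrix before boundaries were called. Per the submitters' processing notes the build is GRCm38. No source used here gives the caller, window size or score cutoffs, and class limits were read from the scores. The deposited score per boundary is the authors' own value, used to describe, rank and group boundaries within this list. Contact matrices, insulation and compartment tracks were not analysed here.

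Genes came from GENCODE M21 and sequence from RefSeq's GRCm38.p6, the build of the list. The TSS is the 5′ end of the gene model. Density used 5 kb bins with at least 50% assembled sequence on 19 autosomes and chromosome X that met the same conditions. Distances run from interval midpoints. An interval was mostly repeated when under 50% of sampled 50-mers (1 in 32) occurred once in the reference. Flanking genes are the nearest protein-coding gene bodies. Boundaries of a gap share flanks and are not independent. Intervals of shares are Wilson 95%.

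Named boundaries were the 10 highest scores, the 5 farthest from a TSS and the 20 highest beside a developmental regulator of the list. The 3 highest on chromosome X and the 5 gaps with the most members were named too. One of these boundaries, 1 of these gaps and 1 sequence are not reported here. The members, lists and rules were chosen with earlier results of these data known. Python 3.11.15, pandas 2.3.3 and scipy 1.17.1 were used, and the rule, motif search and repeat measure were tested on simulated data.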

Additional observations from a re-analysis of the deposited data

How the results depend on the processing

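Of 72 values recomputed under 13 alternatives, 54 stayed within the counting interval of the reported value (for the number of boundaries, within 1.5 times it) and 18 did not. Taking boundaries more than 100 kb from a TSS gave a strong share of 22.4%, a median score of 0.307 and a CTCF share of 13.2%. More than 300 kb gave 13.2% strong and 7.80% with a match. More than 500 kb left 530 boundaries, of which 10.0% were strong, with a median of 0.278, a CTCF share of 5.85% and 9.25% beside a developmental regulator. Extending intervals by 0 or 25 kb moved the CTCF share to 2.78% and 15.9%, and an alternative CTCF motif with free positions, chosen after seeing the data, to 7.33%, with 4.84% of desert bins. Strong boundaries alone numbered 173, or 0.316 per Mb, with a median of 0.762, 24.3% with a match and 17.3% beside a regulator. Under each of the 13 alternatives the desert CTCF share stayed below the nearer intergenic share and above that of desert bins. The desert median score stayed the lower too, though the alternative motif cannot change a score. Merging boundaries within 50 kb could change nothing, since neighbours are at least 60 kb apart, yet its values are counted among the 54. Alternatives that kept 1076, 1061 or 999 of the boundaries use nearly the same members. Staying within the interval was likely for them beforehand and says little. No paired analysis was possible because both replicates were pooled before calling and form 1 group, and for the same reason no replicate could be left out. Scores of the deepest deserts rest on contacts whose depth is unknown here.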

Other observations

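The strong share beside developmental regulators was set out by distance. Beyond 500 kb from any TSS, 11 of 49 desert boundaries beside a regulator were strong (22.4%, Wilson 95% interval 13.0 to 35.9%), against 42 of 481 others (8.73%, 6.52 to 11.6%). At 200 to 300 kb the shares were 24.4% of 41 and 24.3% of 218, and at 300 to 500 kb 18.4% of 49 and 18.9% of 254. The 49 boundaries lay in 26 gaps and the 11 strong ones in 9. They stood beside Gata3, Nr4a2, Ets1, Etv1, Irx1, Tox3 and Sall1, Nr2f2, Mecom, and, with 3 of the 11, Zeb2. Some scored close to the class limit of 0.5, at 0.501 and 0.521 in the gap of Zeb2 and 0.549 beside Mecom. Beyond 500 kb a CTCF match was held by 12.2% of boundaries beside a regulator and 5.20% of the others. These distance classes were compared after the values had been seen, and the difference was not tested.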
